A study of Danio rerio with 45 samples.

Results

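The 4 genes lef1, axin1, fzd7b and lrp5 encode parts of the Wnt/β-catenin signalling chain, and their RNA lay toward opposite ends of the early zebrafish (Danio rerio) embryo. They were chosen by name, as the rows of the deposited count table that carry these symbols after removal of a trailing copy number. Each symbol had a single row, so 4 of 12670 rows are described. Embryos were sliced along the animal-vegetal axis into 5 sections, from A at the animal end to E at the vegetal end, and the RNA of each section was sequenced (TOMO-seq). The groups were 1 hour post fertilisation (hpf; about 4 cells, 3 embryo samples), 2 hpf (about 64 cells, 2 embryo samples) and 3 hpf (about 1000 cells, 3 embryo samples), which gave 40 section libraries. The labels give no strain, genotype or treatment for any group, and do not say whether a biological replicate was 1 embryo or a pool.

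In the Wnt/β-catenin pathway, a secreted Wnt ligand binds a Frizzled receptor together with the co-receptor Lrp5 or Lrp6. Without ligand, a destruction complex assembled on the scaffold protein Axin1 marks β-catenin for breakdown. β-catenin that escapes this complex enters the nucleus and activates target genes with Lef1 or other Tcf-family DNA-binding proteins. In zebrafish, maternal β-catenin activity sets up the dorsal organiser of the blastula, and the animal-vegetal axis is laid down earlier, in the oocyte.

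Levels are in CPM, which are counts divided by the scaled library total, times 1000000. Each library was made from an equal amount of RNA. A level is thus relative to the scaled total of its section's library, and says nothing of amounts per embryo. In such bulk sections, fewer cells carrying an RNA and less of that RNA per cell cannot be told apart. Library totals ran from 1355607 to 6566549 counts. The lowest count of lef1 in any library was 60 (exact Poisson 95% interval 45.8 to 77.2, counting error only), and the lowest counts of axin1, fzd7b and lrp5 were 118, 96 and 73. The section labels were checked against a list of 6 vegetal RNAs (dazl, sybu, grip2a, hwa, celf1 and trim36) and 4 animal RNAs (exd2, fbxo5, foxh1 and pou5f3). At each stage all 6 vegetal RNAs passed the edgeR test as more abundant in E, and all 4 animal RNAs as more abundant in A. Both lists were written with earlier results of these data known, so this outcome is not an independent check of the labels. Markers of ovarian follicle cells reached at most 9.68 CPM in sections A and E, from 2 of 8 listed genes in the table.

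At the receptor step, fzd7b and lrp5 RNA was higher toward the animal end. The Frizzled receptor gene fzd7b stood at 236, 224 and 204 CPM in section A of the 3 embryo samples at 1 hpf and at 89.6, 102 and 97.1 CPM in section E. At 2 hpf the values were 223 and 211 CPM in A and 107 and 83.6 CPM in E. At 3 hpf they were 229, 204 and 223 CPM in A and 80.1, 84.7 and 83.4 CPM in E. Every A library was above every E library of its stage, by 2.09-fold to 2.86-fold within an embryo sample. The fitted log2 difference, E minus A, was -1.19 ± 0.09 (SE) at 1 hpf, -1.19 ± 0.13 at 2 hpf and -1.41 ± 0.14 at 3 hpf. Section E held the lowest fzd7b value in 8 of 8 embryo samples, and the highest fell in A in 6 and in B in 2.

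The co-receptor gene lrp5 showed the smallest difference of the 4 genes. Its level was 106, 99.7 and 102 CPM in section A at 1 hpf and 46.6, 48.9 and 49.4 CPM in E. At 2 hpf it was 121 and 110 CPM in A and 51.6 and 60.2 CPM in E. At 3 hpf it was 116, 116 and 106 CPM in A and 60.9, 51.8 and 62.8 CPM in E. A and E did not overlap at any stage, and A exceeded E by 1.70-fold to 2.34-fold. The log2 difference, E minus A, was -1.08 ± 0.11, -1.07 ± 0.15 and -0.96 ± 0.13 (SE) at 1, 2 and 3 hpf. The lowest lrp5 value fell in section E in 6 embryo samples and in section D in the other 2. The highest fell in A in 5, in B in 2 and in C in 1. At 1 hpf it fell in B, C and B of replicates 1, 2 and 3, and the step from A to B was 0.12 ± 0.10 (log2, SE).

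The scaffold gene axin1, whose product holds the destruction complex together, had the largest fitted decline toward the vegetal end among the 4. At 1 hpf its level was 587, 510 and 471 CPM in section A and 140, 155 and 179 CPM in E. At 2 hpf it was 547 and 473 CPM in A and 168 and 133 CPM in E, and at 3 hpf 464, 453 and 497 CPM in A and 98.5, 133 and 156 CPM in E. Section A exceeded E in each embryo sample, by 2.63-fold to 4.71-fold, and E was the lowest section in 8 of 8. The log2 difference, E minus A, was -1.71 ± 0.11 (SE) at 1 hpf, -1.76 ± 0.13 at 2 hpf and -1.89 ± 0.16 at 3 hpf. Ordered from the most animal difference, axin1 was number 60 of 12597 genes at 1 hpf, 109 of 12593 at 2 hpf and 161 of 12625 at 3 hpf.

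The nuclear factor gene lef1 ran the other way, with its RNA concentrated at the vegetal end. At 1 hpf it stood at 39.7, 27.3 and 13.7 CPM in section A and at 409, 328 and 246 CPM in section E. At 2 hpf the values were 24.6 and 18.1 CPM in A and 311 and 514 CPM in E. At 3 hpf they were 33.5, 17.4 and 20.2 CPM in A and 554, 461 and 560 CPM in E. E exceeded A in every embryo sample, by 10.3-fold to 28.3-fold, and was the highest section in 8 of 8. The log2 difference, E minus A, was 3.72 ± 0.17 (SE) at 1 hpf, 4.27 ± 0.25 at 2 hpf and 4.55 ± 0.22 at 3 hpf. The 2 embryo samples of 2 hpf gave 3.66 and 4.83 on this scale, so the SE does not give the spread between them. From the vegetal side lef1 was number 18, 21 and 12 among the genes tested at the 3 stages.

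The differences between E and A were known when the 4 genes were chosen, so they are given as a description without a test. For scale, all E libraries were above all A libraries in 9.22% of genes at 1 hpf, 19.8% at 2 hpf and 11.2% at 3 hpf. All E were below all A in 8.82%, 19.9% and 11.3%. With library totals in place of scaled totals, the median of all genes moved to -0.14, -0.14 and -0.22 (log2, E minus A) at the 3 stages, and each of the 4 genes kept its direction.

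**Figure D1:**
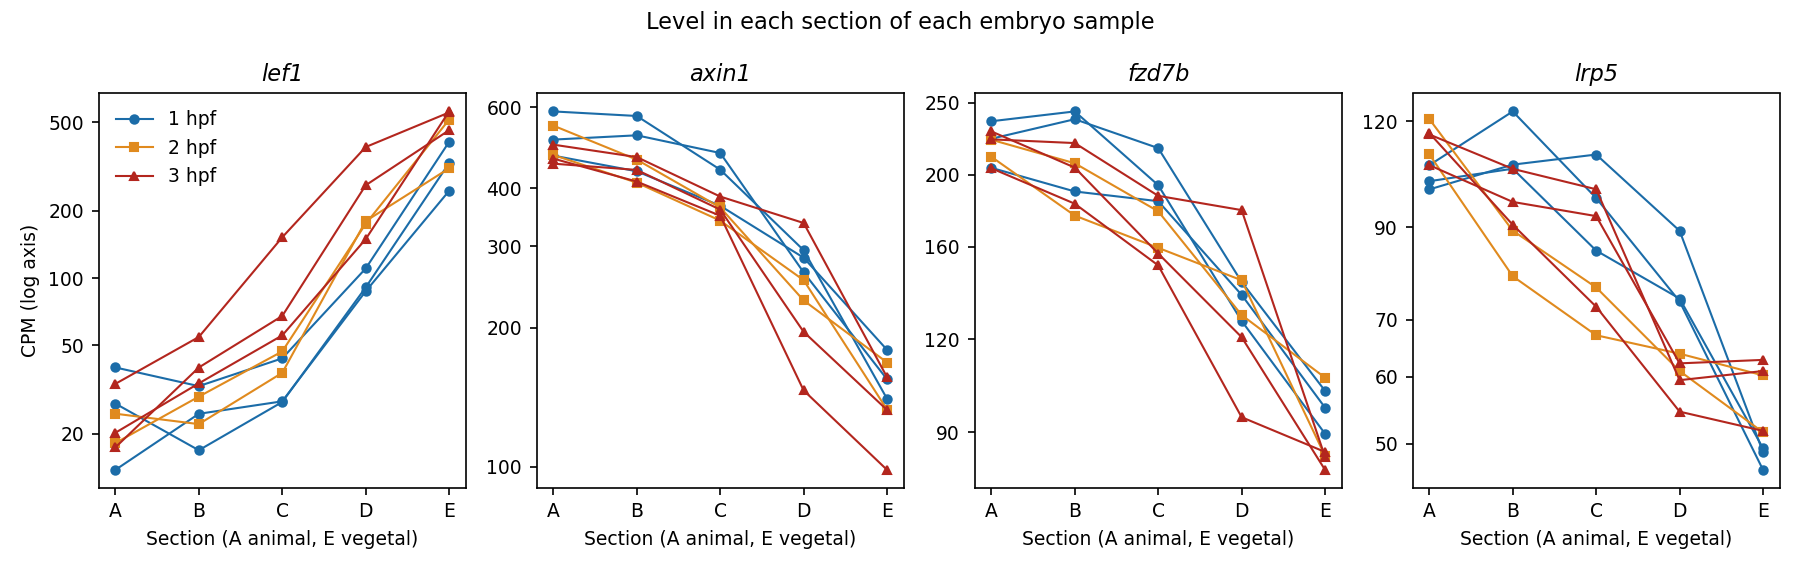
Each panel plots the CPM of 1 gene (log axis) against section, from A (animal) to E (vegetal), with 1 line per embryo sample and colour and marker giving the stage. lef1 is highest in E in all 8 lines, at 246 to 560 CPM, while axin1 and fzd7b are lowest in E in all 8 lines and lrp5 is lowest in E in 6.

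The shape of the gradients differed among the genes, as the steps between neighbouring sections show. Overlap of neighbouring sections is given as a description, since the share of all genes without such overlap is not given here. At 2 hpf, with 2 libraries per section, all E were above all A in 19.8% of genes and below in 19.9%. At 1 hpf the lef1 values in A, B and C overlapped, at 13.7 to 43.6 CPM, and D (110, 90.7 and 87.2 CPM) and E stood apart from them and from each other. The lef1 step from A to B was 0.00 ± 0.19 (log2, SE), that from B to C 0.41 ± 0.18, that from C to D 1.55 ± 0.16 and that from D to E 1.76 ± 0.14. At 2 hpf A and B overlapped and each further section was higher than the one before, with the largest step from C to D (2.09 ± 0.22). At 3 hpf lef1 was 33.5, 17.4 and 20.2 CPM in A, 54.3, 39.6 and 33.6 CPM in B and 152, 67.5 and 55.3 CPM in C. The 4 steps at 3 hpf were 0.86 ± 0.23, 1.02 ± 0.21, 1.56 ± 0.19 and 1.09 ± 0.19. The C and D libraries of 3 hpf overlapped, since C of replicate 1 (152 CPM) was above D of replicate 3 (149 CPM).

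For axin1, most of the decline lay between C and E. At 1 hpf the A, B and C values of axin1 formed a continuous range from 367 to 587 CPM, and D, at 294, 263 and 283 CPM, was below all of them. The axin1 steps at 1 hpf were -0.03 ± 0.10 from A to B, -0.25 ± 0.10 from B to C, -0.62 ± 0.10 from C to D and -0.81 ± 0.11 from D to E (log2, SE). At 2 hpf each axin1 section was below the one before it without overlap, with steps from -0.23 ± 0.12 to -0.68 ± 0.13. At 3 hpf A overlapped B and D overlapped E.

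The fzd7b gradient was of the same form. At 1 hpf A, B and C overlapped between 184 and 243 CPM, D lay at 127, 143 and 138 CPM, and E lay below D. At 2 hpf B and C overlapped while A, D and E stood apart. At 3 hpf A overlapped B, B overlapped C and C overlapped D, while E, at 80.1 to 84.7 CPM, was apart. The step from D to E at 3 hpf was -0.67 ± 0.14 (log2, SE).

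For lrp5 the place of the largest step varied with stage. At 1 hpf the largest lrp5 step was from D to E (-0.69 ± 0.11), where D held 73.6, 89.1 and 74.1 CPM and E did not exceed 49.4 CPM. At 2 hpf it was from A to B (-0.46 ± 0.14), and at 3 hpf from C to D (-0.58 ± 0.12). The D-to-E step at 3 hpf was -0.02 ± 0.14, with D at 59.4, 54.6 and 62.2 CPM and E at 60.9, 51.8 and 62.8 CPM. Whether these steps differ between stages was not tested.

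**Figure D2:**
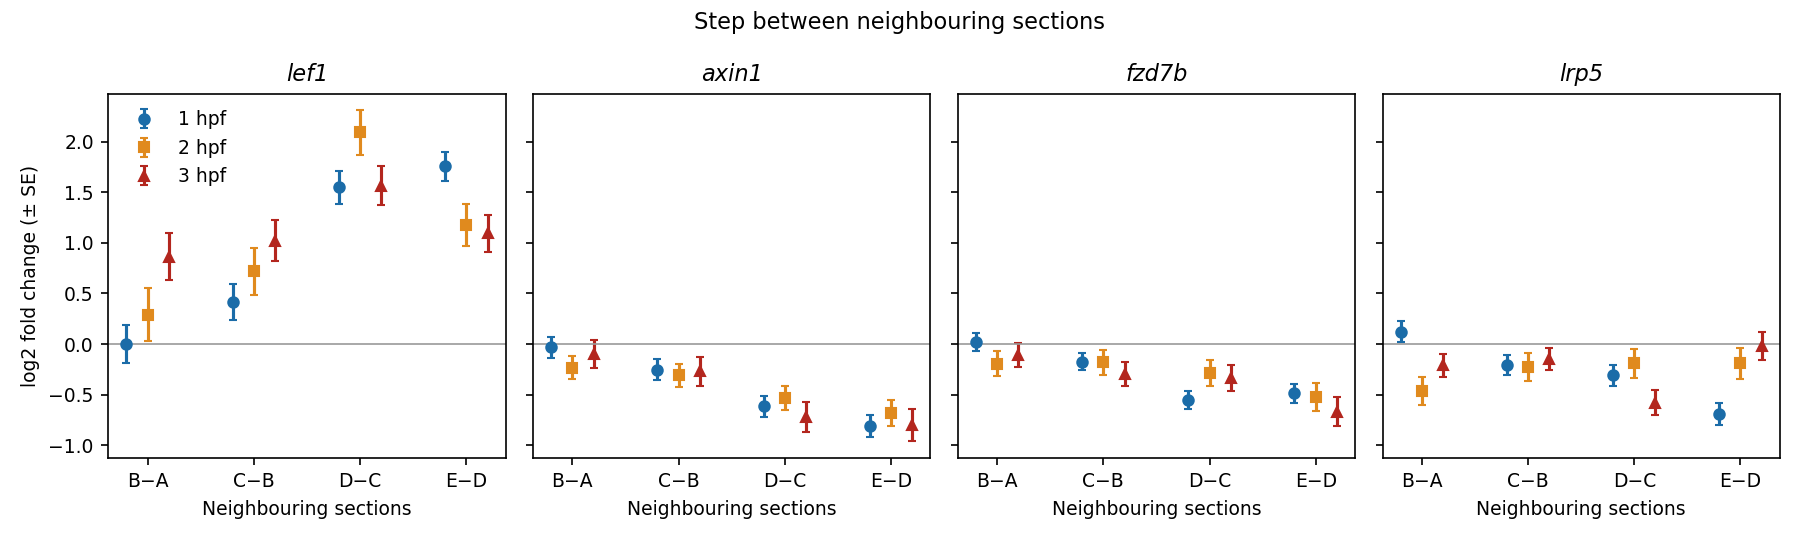
Points give the log2 fold change between neighbouring sections (B over A, C over B, D over C, E over D) from the edgeR fit of each stage, and bars are ± 1 SE. The lef1 steps are positive from B onward and the largest steps of axin1 lie at D−C and E−D. The lrp5 step E−D lies near 0 at 3 hpf and at -0.69 at 1 hpf.

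Sections B and D were compared to ask whether the opposite gradients also appear between inner slices, with sections A and E left out of the fit. These are slices of the same embryo samples, fitted together with section C alone. The genes were chosen with earlier results of these data known, so the p-values are not independent of that choice. At 1 hpf lef1 was higher in D than in B, with a log2 difference of 1.97 ± 0.13 (SE; edgeR adjusted p = 1.16e-08). The genes axin1 (-0.86 ± 0.08; edgeR adjusted p = 8.11e-07), fzd7b (-0.72 ± 0.08; 1.08e-05) and lrp5 (-0.51 ± 0.10; 0.00226) were lower in D. All 4 of the genes thus passed at 1 hpf, where 5.69% of all genes did.

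At 3 hpf all 4 passed again, against 5.94% of all genes. The differences were 2.58 ± 0.15 for lef1 (edgeR adjusted p = 4.04e-09), -0.99 ± 0.15 for axin1 (0.000223), -0.64 ± 0.11 for fzd7b (0.00147) and -0.72 ± 0.12 for lrp5 (0.000473). At 2 hpf, with 2 embryo samples, lef1 (2.81 ± 0.16; edgeR adjusted p = 0.000163) and axin1 (-0.85 ± 0.11; 0.00564) passed, against 2.64% of all genes. There fzd7b (-0.47 ± 0.12; edgeR adjusted p = 0.12) and lrp5 (-0.42 ± 0.14; 0.246) did not. Intervals of 2 SE around those values ran from -0.71 to -0.23 and from -0.69 to -0.14. When C and D of the second 2 hpf replicate were left out, only replicate 1 held section D, and the fzd7b difference was -0.67.

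Of these calls, 3 rested on treating the sections of an embryo sample as a block. Without it the edgeR adjusted p was 0.0969 for lrp5 at 1 hpf, 0.102 for axin1 at 3 hpf and 0.273 for fzd7b at 3 hpf. The direction of each stayed the same.

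The embryo samples of 3 hpf differed widely in section D for lef1, axin1 and fzd7b. In replicates 1, 2 and 3, lef1 stood there at 387, 261 and 149 CPM, and axin1 at 146, 196 and 337 CPM. The fzd7b values were 121, 94.3 and 179 CPM, while those of lrp5 lay closer together at 59.4, 54.6 and 62.2 CPM. Replicate 3 was thus lowest for lef1 and highest for axin1 and fzd7b. The summed level of the 6 vegetal RNAs in the same libraries was 12464, 6535 and 3632 CPM, and in section E it was 26502, 19219 and 23750 CPM. The part of this difference in vegetal RNA in the spread of lef1, axin1 and fzd7b was not tested.

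The ratio of lef1 to axin1 counts within a library does not depend on its scaling. The ratio of E to A of this quantity was 42.8, 39.5 and 46.9 in the 3 embryo samples of 1 hpf. It was 40.9 and 100.2 at 2 hpf and 77.6, 89.9 and 87.8 at 3 hpf. The 1 and 3 hpf values did not overlap, and the 2 samples of 2 hpf lay far apart. A change of the ratio between stages was not tested, and no other gene pair was compared. On the log2 scale the means were 5.43 ± 0.12 at 1 hpf and 6.41 ± 0.11 at 3 hpf (SD, n = 3), and the values at 2 hpf were 5.35 and 6.65. Counts were not divided by transcript length, so the ratio itself does not compare the levels of the 2 genes.

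**Figure D3:**
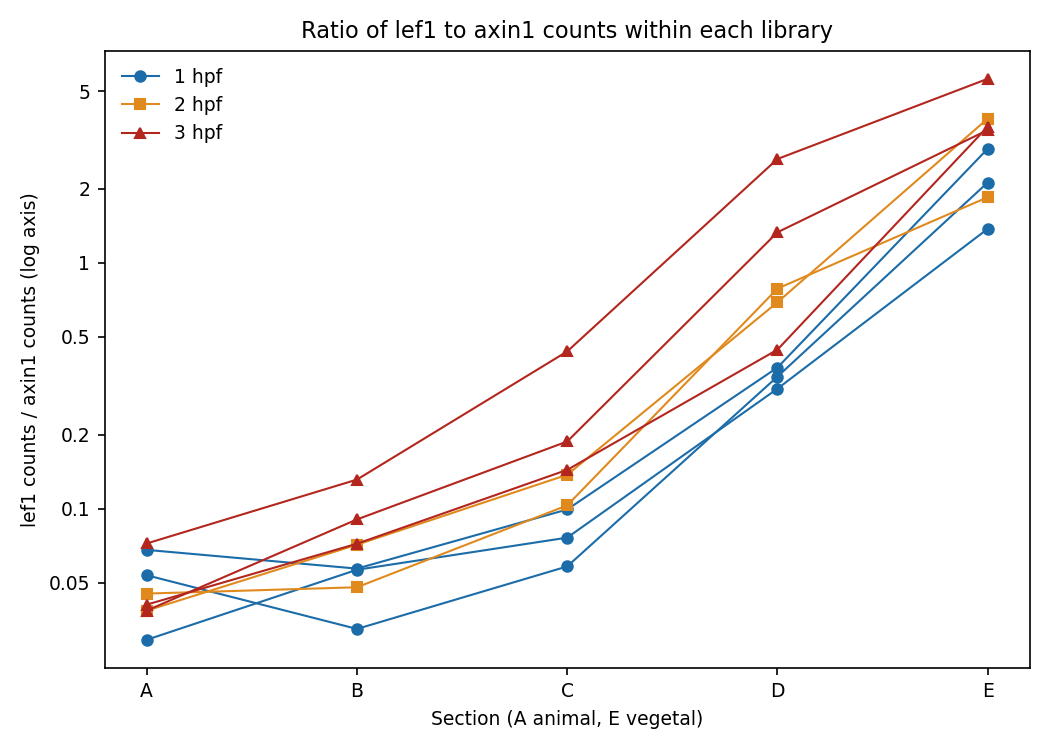
The ratio of lef1 to axin1 counts (log axis, pseudocount 0.5) is plotted against section for each library, with 1 line per embryo sample and colour and marker giving the stage. The lines span a 39.5-fold to 46.9-fold range from A to E at 1 hpf and a 77.6-fold to 89.9-fold range at 3 hpf.

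Whether the contrast of E with A shifted from stage to stage was tested over all 40 libraries. From 1 to 3 hpf it was 0.84 ± 0.33 (log2, SE) for lef1, with an interval of 2 SE from 0.17 to 1.50 and an edgeR adjusted p of 0.305. For axin1 it was -0.17 ± 0.20 (edgeR adjusted p = 0.833), for fzd7b -0.21 ± 0.17 (0.71) and for lrp5 0.13 ± 0.16 (0.835). None of the 4 passed with edgeR, where 0.695% of all genes did, and lef1 alone had an unadjusted p under 0.05. From 1 to 2 hpf and from 2 to 3 hpf none of the 4 passed or had an unadjusted p under 0.05, against 0.0237% of all genes passing at both steps. DESeq2 called none of the 4 between any 2 stages. Over the alternative settings the adjusted p of the change from 1 to 3 hpf ran from 0.234 to 0.933 for lef1. 

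Levels over the whole embryo sample were compared on the sum of its 5 section libraries. Summed lef1 was 132, 77.7 and 71.2 CPM at 1 hpf, 105 and 91.7 CPM at 2 hpf and 143, 113 and 110 CPM at 3 hpf. The 1 and 3 hpf values overlapped, and the log2 change was 0.38 ± 0.24 (SE; edgeR adjusted p = 0.57). The changes were -0.06 ± 0.06 for axin1 (edgeR adjusted p = 0.833), -0.01 ± 0.09 for fzd7b and 0.00 ± 0.08 for lrp5 (both 0.9997). With the replicate number as a block, the lef1 change was 0.42 ± 0.11 (edgeR adjusted p = 0.0691), and 800 genes passed in place of 221. None of the 4 passed from 1 to 3 hpf, where 1.74% of all genes did, with 2 SE intervals from -0.19 to 0.07 for axin1, -0.18 to 0.17 for fzd7b and -0.16 to 0.16 for lrp5. From 1 to 2 hpf edgeR called 0% of all genes (402 genes at an unadjusted p under 0.05; 24 with DESeq2) and from 2 to 3 hpf 0.103%, none of them among the 4.

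A sum weights each section by its depth, and section E held 14.6% to 21.3% of the counts of a 1 hpf embryo sample but 8.33% to 11.1% at 3 hpf. With the 5 sections weighted equally, a choice made after the values were seen, lef1 averaged 127, 98.2 and 80.0 CPM at 1 hpf, 115 and 157 CPM at 2 hpf and 236, 169 and 164 CPM at 3 hpf. The 1 and 3 hpf values then did not overlap, and the log2 difference was 0.91. The share of all genes without overlap under this weighting is not given here. The two-sided exact permutation p was 0.1, the smallest that 3 against 3 samples allow. The same difference was -0.22 for axin1 (exact permutation p = 0.2), -0.13 for fzd7b (0.3) and -0.08 for lrp5 (0.3). Both weightings rest on counts relative to scaled library totals, and the RNA content of the sections was not analysed here.

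**Figure D4:**
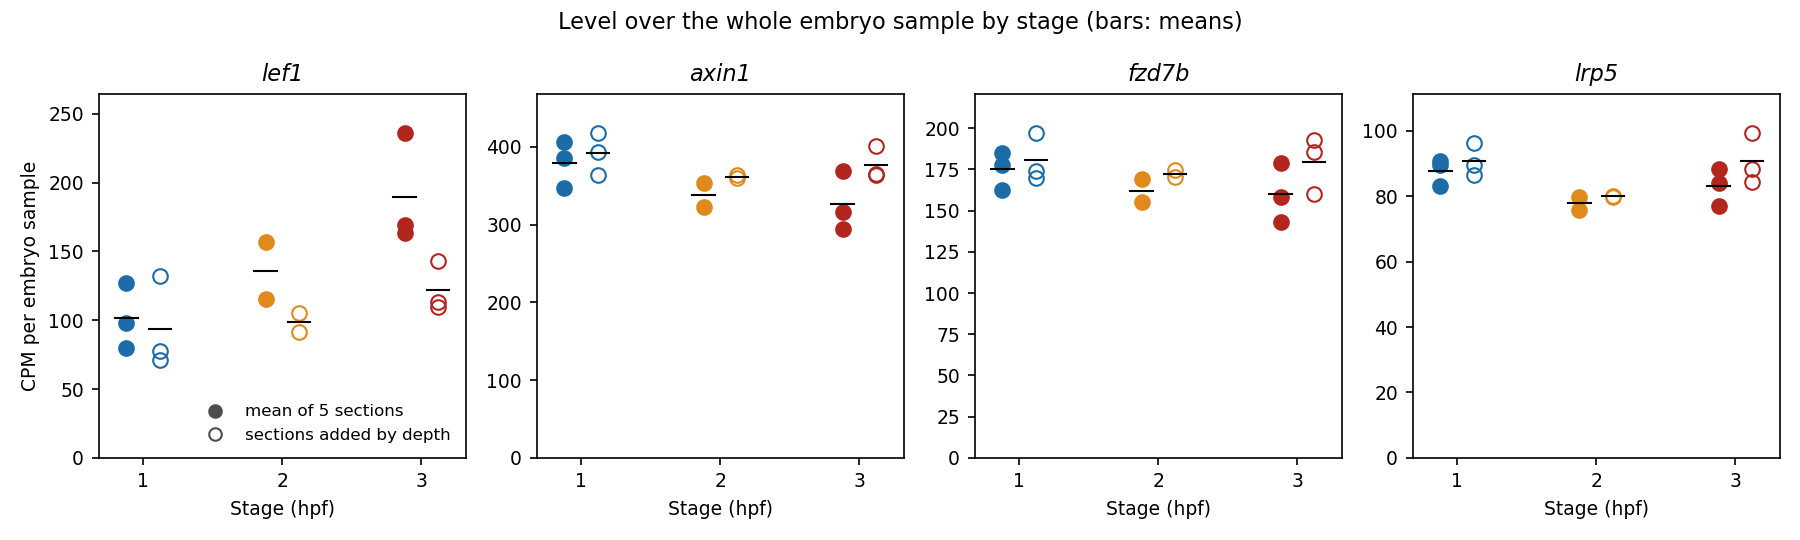
Each panel plots the CPM of 1 gene per embryo sample against stage, as the mean of the 5 sections with equal weight (filled) and as the sum of the sections by depth (open), with short bars for means. The filled lef1 points lie at 80.0 to 127 CPM at 1 hpf and 164 to 236 CPM at 3 hpf, while the open lef1 points of the 2 stages overlap.

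Over the 40 libraries, centred within each embryo sample on log2(CPM + 1), axin1 and fzd7b had a Pearson r of 0.98. The values were 0.92 for axin1 with lrp5 and 0.90 for fzd7b with lrp5. lef1 had an r of -0.96 with axin1, -0.96 with fzd7b and -0.92 with lrp5. These describe a shared gradient, since the libraries of an embryo sample are slices of 1 axis.

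The genes with the most similar profile were sought by the same measure among 8420 genes with a mean of at least 10 CPM. For lef1 they were camk2g1, a calcium/calmodulin-dependent kinase gene, vrtn, the phosphatase gene ctdsplb, sh2d5 and sulf1, a heparan sulfate sulfatase gene, with r from 0.989 to 0.992. For axin1 they were ppp4r1l, cspp1, the mitotic kinase gene aurka, rab11fip1b and micall2b (0.985 to 0.993). For fzd7b the first was axin1 itself, followed by sorl1, the calcium pump gene atp2a2b, rab11fip1b and the DNA repair gene brca2 (0.975 to 0.981). For lrp5 they were pias4a, bmp1a, the spindle gene tacc3, itpkcb and me3 (0.948 to 0.955). Ranked by Spearman's rho, 1 of the 5 genes stayed among the first 5 for lef1, 1 for axin1, 3 for fzd7b and 2 for lrp5.

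The rest of the pathway was read from a list of 122 symbols, of which 44 were in the count table, 40 besides the 4 genes. That list was written with earlier results of these data known. Its shares and p-values below are not independent of that choice, and no enrichment of the pathway is read from them. Of the 39 tested at 1 hpf, 6 were higher in E and 3 lower, or 23.1% against 13.1% of all genes. At 2 hpf 4 of 39 were higher in E and 2 lower (15.4% against 9.99%), and at 3 hpf 6 of 40 were higher and 2 lower (20% against 15.6%). The median log2 difference of the list was 0.05, -0.09 and 0.00, and that of all genes 0.00, 0.02 and -0.02. With library totals the list split into 5 higher and 5 lower, 3 and 3, and 4 and 11. Its median was then -0.08, -0.24 and -0.21, and the median of all genes also lay on the animal side. The share of all genes called in that setting is not set beside these counts, so they are no result about the list. Between the inner sections D and B, 5 of 39 passed at 1 hpf (12.8%, against 5.69% of all genes), 2 of 39 at 2 hpf (5.13% against 2.64%) and 3 of 40 at 3 hpf (7.5% against 5.94%).

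Among regulators of β-catenin breakdown, fbxw11a and csnk1da were higher in E at all 3 stages. fbxw11a, which encodes a substrate-recognition subunit of the ubiquitin ligase for β-catenin, averaged 119 ± 36.2 CPM in section A and 1133 ± 147 CPM in section E at 1 hpf (SD, n = 3). Its log2 difference was 3.30 ± 0.16 (SE; edgeR adjusted p = 6.07e-13) at 1 hpf, 3.92 ± 0.16 at 2 hpf and 3.77 ± 0.19 at 3 hpf. The casein kinase gene csnk1da differed by 1.24 ± 0.17, 1.73 ± 0.22 and 1.51 ± 0.18, with edgeR adjusted p of 8.37e-06, 0.00076 and 1.8e-06. Both were also higher in D than in B at each stage, fbxw11a by 1.70 ± 0.09, 2.23 ± 0.11 and 1.92 ± 0.10, though for csnk1da this call was lost at 1 hpf without the replicate block and at 2 hpf without replicate 1. In this group of 10 genes besides axin1, 4 passed at 1 hpf, all higher in E, against 13.1% of all genes. At 2 hpf 2 passed, both higher in E, against 9.99%, and at 3 hpf 4 passed, 3 of them higher in E, against 15.6%. These shares of all genes count both directions. Of all genes, 851 of 12597, 645 of 12593 and 1023 of 12625 were called higher in E at the 3 stages. The scaffold gene apc passed at 1 and 3 hpf (0.36 ± 0.07 and 0.35 ± 0.08). Its 1 hpf call was lost without replicate 3, and its 3 hpf call without replicate 1 or with library totals. csnk1db at 1 hpf (0.22 ± 0.06) and apc2 at 3 hpf (-1.50 ± 0.45; edgeR adjusted p = 0.026) passed at 1 stage, and both calls were lost without any 1 of the 3 replicates. Both were also lost without the replicate block, and that of csnk1db with library totals. apc2 is a low gene, averaging 7.76 ± 2.38 CPM in A and 2.89 ± 1.70 CPM in E at 3 hpf (SD, n = 3). The paralog axin2 did not pass at any stage (-0.08, -0.37 and 0.22).

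At the level of β-catenin itself, ctnnb2, the maternal β-catenin gene needed for the zebrafish dorsal organiser, was higher in E at all 3 stages. It averaged 734 ± 112 CPM in section A and 1147 ± 198 CPM in section E at 1 hpf (SD, n = 3), with log2 differences of 0.64 ± 0.11, 0.73 ± 0.18 and 0.80 ± 0.10 (edgeR adjusted p = 0.000198, 0.0309 and 4.58e-06). Between D and B, ctnnb2 passed at 1 and 3 hpf (edgeR adjusted p = 1.45e-05 and 0.000135) but not at 2 hpf (0.0632). The 2 hpf difference was 0.57 ± 0.12 (SE). It passed with DESeq2, without the replicate block and with all stages in 1 fit, but not with library totals or without the filter on low counts. The other β-catenin gene, ctnnb1, differed between E and A by 0.05, -0.16 and 0.06 and did not pass.

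Of the 11 nuclear factors tested besides lef1, 2 passed at 1 hpf, 2 at 2 hpf and 1 at 3 hpf, all lower in E. These are 18.2%, 18.2% and 9.09%, against 13.1%, 9.99% and 15.6% of all genes in either direction. Of all genes, 799 of 12597, 613 of 12593 and 946 of 12625 were called lower in E at the 3 stages. The repressor gene tcf7l1a, whose loss truncates the zebrafish forebrain, was lower in E at all 3 stages, by -0.93 ± 0.15, -1.19 ± 0.18 and -0.99 ± 0.17 (edgeR adjusted p = 7.97e-05, 0.002 and 0.000125). It averaged 69.0 ± 8.99 CPM in section A and 36.5 ± 9.43 CPM in section E at 1 hpf (SD, n = 3). Between D and B, tcf7l1a passed at 1 hpf (-0.65 ± 0.13; edgeR adjusted p = 0.00251) but not at 2 or 3 hpf (0.0979 and 0.0824). That 1 hpf call was lost without the replicate block. The β-catenin co-activator gene bcl9 was lower in E at 1 hpf (-0.24 ± 0.07) and 2 hpf (-0.75 ± 0.14). Its 1 hpf call did not hold without the replicate block, with all stages in 1 fit, without replicate 2 or without replicate 3. The other Tcf-family genes measured, tcf7 and tcf7l1b, did not pass at any stage, and tcf7 stayed below 6 CPM on average in A and E. fzd7a and tcf7l2 were not analysed here.

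Among receptors besides fzd7b and lrp5, fzd5 was lower in E at 1 hpf (-0.85 ± 0.20; edgeR adjusted p = 0.00361). That call was lost without the replicate block, without replicate 1 or without replicate 2. At 2 and 3 hpf the fzd5 values of -0.61 and -0.62 did not pass. The co-receptor paralog lrp6 differed by -0.08, -0.32 and -0.04 and did not pass at any stage, averaging 52.5 ± 11.3 CPM in A and 49.7 ± 8.41 CPM in E at 1 hpf (SD, n = 3). lrp6 has a further row in the table with a mean of 4.20 CPM, so a part of its reads may be counted there. The Dishevelled genes, which relay the receptor signal, had small differences where they were abundant, with dvl2 at -0.04, -0.25 and -0.09 and dvl3a at -0.03, 0.06 and -0.02, and did not pass.

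Of the ligands and the genes for their release, wls, which encodes the carrier that Wnt ligands need for secretion, was higher in E at all 3 stages. Its log2 differences were 0.82 ± 0.11, 0.81 ± 0.21 and 0.73 ± 0.14 (edgeR adjusted p = 4.71e-06, 0.0411 and 0.000435). With library totals, or without the replicate block, its 2 hpf call was lost. Between D and B, wls did not pass at any stage, with 0.04 ± 0.09, 0.83 ± 0.18 and 0.43 ± 0.14 (edgeR adjusted p = 0.912, 0.0597 and 0.1). The 2 hpf calls of wls and ctnnb2 were lost when section E of replicate 2, with 1466266 counts, was left out, and that of ctnnb2 also without replicate 2. Of the secreted or membrane regulators, znrf3, a ubiquitin ligase gene that removes Frizzled receptors, was higher in E at 3 hpf (0.46 ± 0.15; edgeR adjusted p = 0.0349). That call was lost with library totals, without the replicate block, without replicate 1 or without replicate 2. For a shift of the contrast of E with A from 1 to 3 hpf, edgeR called 0 of the 40 genes (4 at an unadjusted p under 0.05; 0 with DESeq2), where it called 0.695% of all genes.

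**Figure D5:**
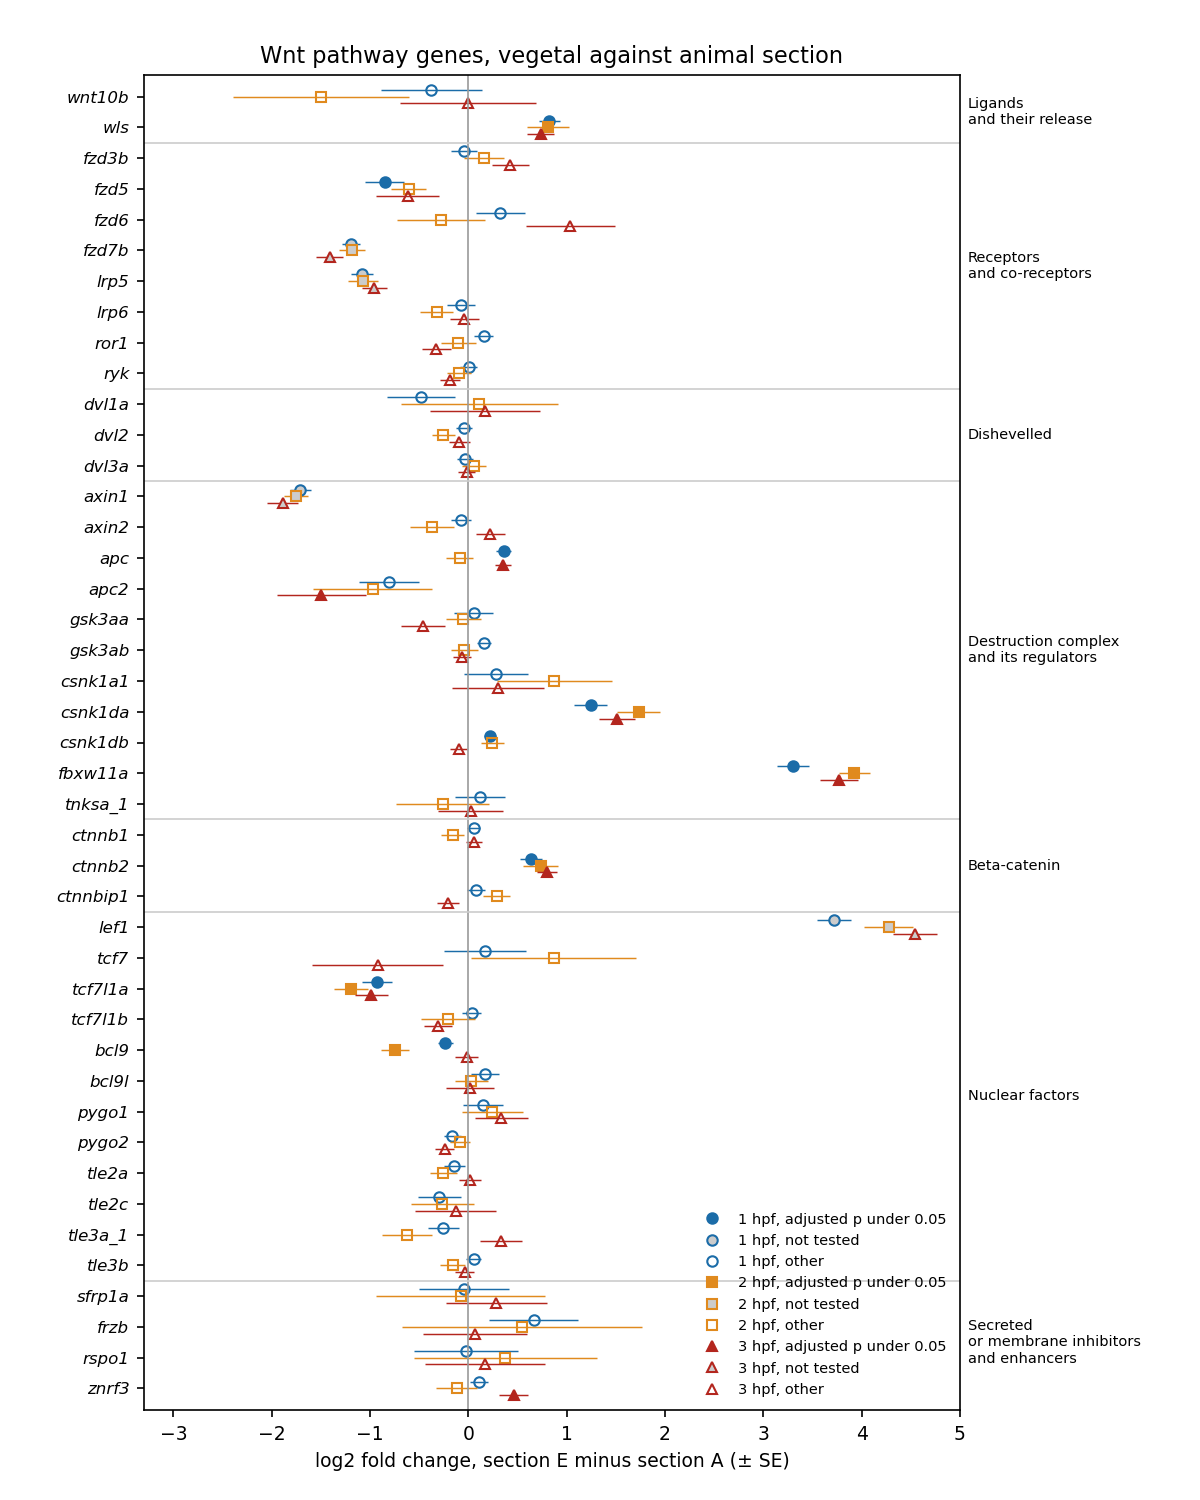
Points give the log2 fold change, E minus A, of the Wnt pathway genes tested at all 3 stages (bars ± 1 SE), grouped by role and coloured by stage. Filled points passed the edgeR test at an adjusted p under 0.05, open points did not, and grey-filled points are the 4 genes, which were not tested here. lef1 and fbxw11a lie farthest to the vegetal side and axin1 farthest to the animal side among these genes at each stage.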

How the data were processed

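Only the deposited table of whole-number read counts per gene was used. It holds 12670 rows, each with at least 60 counts over the 40 libraries; how low genes were removed is not given in the sources used here. The submitters' processing notes name build GRCz11, HTSeq 2.0.4, STAR 2.7.11, fastp 0.23.4 and DESeq2, without stated roles or annotation. Per the labels' protocols, ribosomal RNA was depleted and libraries were strand-specific. The 5 sections of the third 2 hpf replicate have no column and were not analysed here. Coordinates are left out because the gene table used for reference is not of that build.

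Tests on counts used edgeR 4.0.16 (R 4.3.3; quasi-likelihood test, TMM factors, standard filter on low counts, Benjamini-Hochberg adjustment over all genes, threshold 0.05). Within a stage, the embryo sample was a block. The change of E minus A between stages was fitted over 40 libraries with a block for each of 8 embryo samples. Stage sums had no block. CPM use TMM factors over the 40 libraries, and intervals are 2 SE wide on each side. Each SE is the absolute log2 difference divided by the square root of the F value of its edgeR test. It comes from a fit that pools information over genes and sections, and can be smaller than the spread between embryo samples. P-values reflect the spread among the samples sequenced. Tables and exact permutation tests used Python 3.11.15 with pandas 2.3.3 and scipy 1.17.1. The fits were tried on simulated counts with known changes, drawn independently for each library without embryo effects or section gradients. Section contrasts within a stage were simulated at 1 hpf only. The simulation therefore does not check the blocks or the 2 hpf fits.

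Replicate numbers were checked for pairing. Between 1 and 3 hpf, deviations of the stage sums of equal numbers had correlations of 0.73, 0.709 and 0.911 across genes, while numbers 1 and 2 crossed gave 0.724 and 0.748. Number 3 crossed with 1 or 2 gave -0.824 to -0.799. The check thus set number 3 apart but did not tell numbers 1 and 2 from each other. Stage sums with the replicate number as a block assume a pairing that this check does not settle. The labels leave the meaning of a shared number unstated. Within stages, sections of the same number correlated with a median of 0.657, 0.101 and 0.59 at 1, 2 and 3 hpf.

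The 4 genes, the pathway list and the marker lists were chosen with earlier results of these data known. Named besides the 4 genes were, for each, the 5 most similar genes, and from the pathway list the paralogs and up to 15 genes called in E minus A with the largest mean change. A symbol with several rows (lrp6, tnksa, tle3a) entered by the row with the highest mean. Alternatives were library totals, DESeq2 1.42.0, no filter, other blocks, 1 fit for all stages, each replicate left out, and sections of doubt left out. For stage sums, the whole embryo sample of 1 hpf replicate 1 was left out in place of its section A.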

Additional observations from a re-analysis of the deposited data

How the results depend on the processing

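The 4 genes kept their direction in all 104 alternative values of E minus A and all 96 of D minus B. Of the latter, 90 kept their side of the threshold, 3 lost it (all without the replicate block) and 3 gained it (fzd7b and lrp5 at 2 hpf). Those 3 gains came from fits over all 3 stages. All 108 values of the change between stages and all 108 of the stage sums stayed above the threshold. Counts over all genes moved more. Without the replicate block, calls of E minus A were 980 of 1650 at 1 hpf and 1161 of 1969 at 3 hpf. Those of D minus B were 236 of 716 and 242 of 746, and those of the change of E minus A 15 of 88 (3 against 1 hpf), 0 of 3 (2 against 1) and 0 of 3 (3 against 2). With the replicate block, stage sums gave 800 in place of 221, 56 in place of 0 and 575 in place of 13. With DESeq2 the change gave 176, 73 and 97 calls and the sums 906, 24 and 472. Library totals gave 3067 for E minus A at 3 hpf. All stages in 1 fit gave 1016 for D minus B at 2 hpf, where the main count was 328. Without section E of 2 hpf replicate 2, E minus A at 2 hpf gave 742 in place of 1258, and the change from 2 to 3 hpf gave 8. Without sections C and D of that replicate, D minus B gave 514, the change 22 and the sums 0. Without section A of 1 hpf replicate 1, the changes gave 32 and 1. Without that whole embryo sample, the sums gave 5. Leaving out each replicate, E minus A ranged from 1132 to 1646 at 1 hpf, 830 to 1745 at 2 hpf and 1360 to 1463 at 3 hpf. D minus B ranged from 491 to 635, 371 to 2391 and 472 to 648. The changes ranged from 15 to 35, 2 to 67 and 0 to 82, and the sums from 0 to 244 (3 against 1 hpf) and 0 to 185 (3 against 2 hpf). At 2 hpf such a fit leaves 1 embryo sample, assumed to vary like the other stages. The cause of these moves was not tested. The lef1 to axin1 ratio was 5.42, 5.99 and 6.40 (log2, E against A) with a pseudocount of 1.

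There were 2 or 3 embryo samples per stage. The change of E minus A of lef1 from 1 to 3 hpf (0.84 ± 0.33; log2, SE) did not pass after adjustment over all genes. The shallowest library was in section E at 2 and 3 hpf and in section A at 1 hpf. The part of sample number and depth in this result was not tested.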

Other observations

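Of the 40 pathway genes besides the 4, 2 differed between the summed 1 and 3 hpf embryo samples, where 1.74% of all genes did, and they are named after their values were seen. With the replicate number as a block, 1 was higher and 2 lower at 3 hpf, among them znrf3 (edgeR adjusted p = 0.0369, and 0.32 without the block). More of all genes passed with that block as well, so 1.74% is not the share to set beside this count. The Frizzled receptor gene fzd8a had 12 counts over the 15 libraries of 1 hpf, 3 over the 10 of 2 hpf and 332 over the 15 of 3 hpf. Its summed level was 0.167 ± 0.146 CPM at 1 hpf and 5.85 ± 2.37 CPM at 3 hpf (SD, n = 3), a log2 change of 5.10 ± 0.91 (SE; edgeR adjusted p = 0.0454). The co-activator gene bcl9 fell from 419 ± 17.0 CPM to 308 ± 25.1 CPM (SD, n = 3), a log2 change of -0.45 ± 0.07 (SE; edgeR adjusted p = 0.029). Both calls were lost without replicate 1, without replicate 2, or without the whole embryo sample of 1 hpf replicate 1. The summed bcl9 values were 406 to 438 CPM at 1 hpf, 353 and 360 CPM at 2 hpf and 285 to 335 CPM at 3 hpf. The share of all genes whose summed values separate 1 from 3 hpf in this way is not given here.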
